A study of Arabidopsis thaliana with 8 samples.

Results

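The 52 genes described here ranked in the top 20% of all probes on arrays of 3-week-old Arabidopsis thaliana plants but not on arrays of 4-week-old plants. They were selected by their measured ranks among 692 probes that carry exactly 1 gene. All deposited values of each array were ranked, and the ranks were averaged over the 4 arrays of each age. A probe in the first 687 places at 3 weeks and outside them at 4 weeks was kept, which gave 57 genes. Of these, 5 are on a list of genes for photosynthetic complexes, their assembly and chlorophyll synthesis and were set aside, leaving 52. All 52 are accounted for below.

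The study compared total RNA of wild-type plants of ecotype Columbia 0, a standard laboratory strain, at 4 weeks of age with the same wild type at 3 weeks. Each age had 4 arrays, numbered 1 to 4, and no mutation or treatment is named for either age. The sources used here do not give the organ, the growth conditions, the array type or the RNA label, and the labels do not say whether the 4 arrays came from separate plants. Spreads between arrays may therefore be technical. Gene lists were looked up only among the 692 probes with 1 gene. There, markers of flowers (0 of 6) and roots (0 of 4) had no probe, and of 6 senescence markers only PPDK had one. Probes with several genes or none named were not searched, so the organ sampled was not checked. Of 23 genes of the Calvin cycle, the pathway of carbon fixation, 2 had a probe with 1 gene, and neither is among the 52. PRK was lower on every array of 4 weeks, with a mean intensity of 0.951 against 7.23 at 3 weeks. It stayed in the top 20% at both ages, in place 601 at 4 weeks. SBPASE was listed at 0 on every array except replicate 4 of 3 weeks, which had 0.00689.

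Most proteins of the chloroplast are encoded in the nucleus, made in the cytosol and imported. The chloroplast in turn makes fatty acids, thiamine precursors and branched-chain amino acids, and has its own ribosomes, whose proteins are partly nuclear-encoded. Several of the 52 genes serve these processes. Others act in membrane traffic, signalling, transcription and RNA metabolism.

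The deposited values are array intensities on a linear scale running from 0 to 100, and their distribution differed between the ages. The median of all probes was 0.390 to 0.445 on arrays of 4 weeks and 0.0239 to 0.0308 on arrays of 3 weeks, and the summed intensity was 3176 to 3359 at 4 weeks and 2882 to 3084 at 3 weeks. Probes listed at 0 made up 13.4% to 13.7% of an array of 4 weeks and 26.9% to 32.0% of an array of 3 weeks. The middle of the 52 genes differed little, although single genes lay on both sides. Their median intensity was 0.421 to 0.494 on arrays of 4 weeks, against 0.401 to 0.426 on arrays of 3 weeks. Their median rank percentile, which is 100 for the brightest probe of an array, was 51.5 to 55.2 at 4 weeks and 87.2 to 87.9 at 3 weeks. A lower rank at 4 weeks is therefore not the same as a lower intensity, and both are given.

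**Figure D1:**
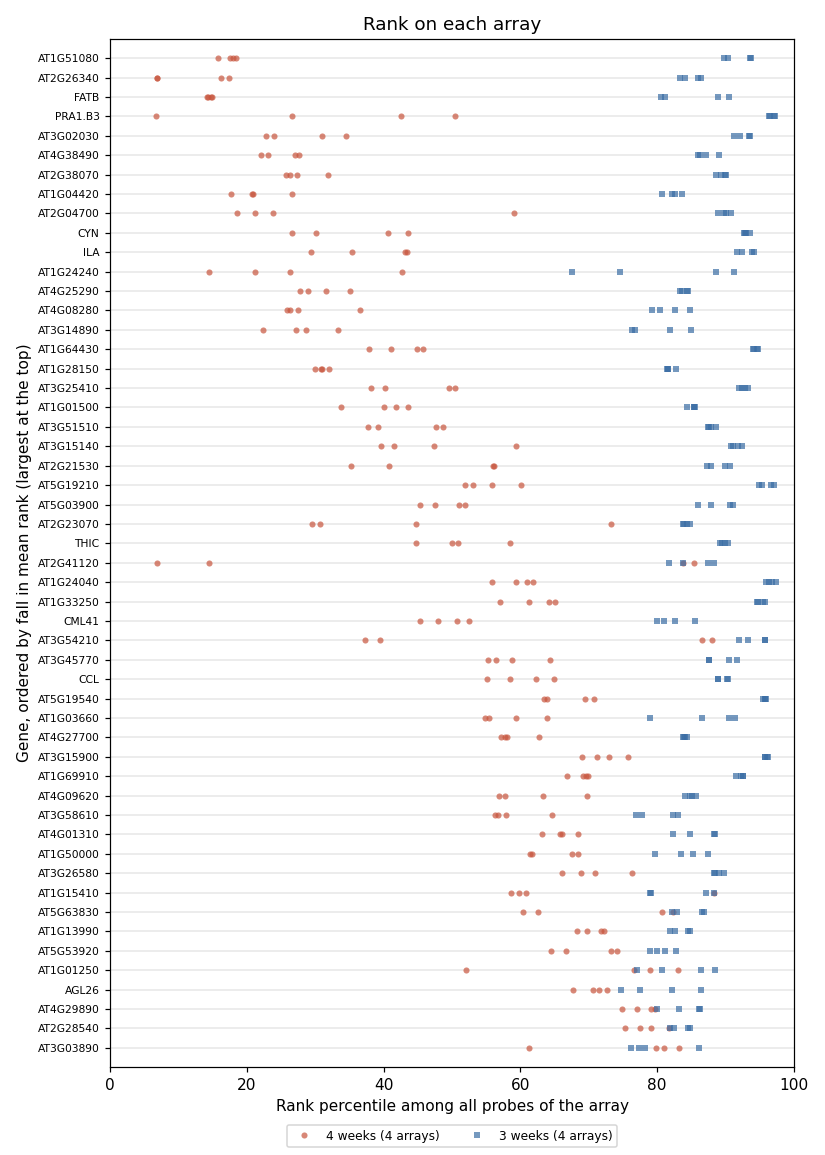
Rank percentile (x axis, 0 to 100, among all probes of an array) of each of the 52 genes (y axis) on the 4 arrays of 4 weeks (red circles) and the 4 arrays of 3 weeks (blue squares). Mean rank percentiles ran from 11.8 to 78.4 at 4 weeks and from 79.5 to 96.8 at 3 weeks, which the selection itself requires.

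The ranks chose these genes, so the difference between the ages describes them and no test is reported on it. In deposited intensity the genes fall into 3 kinds. For 20 of the 52 genes all 4 arrays of 4 weeks lay below all 4 arrays of 3 weeks, as did 8.69% of all probes and 5.78% of the probes with 1 gene. For 16 genes the arrays of the ages overlapped. Of these, THIC, AT2G04700 and AT3G54210 were lower at 4 weeks in all 4 pairs of same-numbered arrays, and 0 were higher in all 4. For 16 genes all 4 arrays of 4 weeks lay above all 4 arrays of 3 weeks, as did 68.3% of all probes and 72.1% of those with 1 gene. The mean was lower at 4 weeks for 30 genes, which holds for 17.2% of all probes and 15.3% of those with 1 gene. The 3-week mean was at least 2 times the 4-week mean for 17 genes, as for 12.9% of all probes and 11.4% of those with 1 gene. The 4-week mean was at least 2 times the 3-week mean for 11 genes, as for 71.6% and 74.7%. These shares stand beside the counts for scale only, since the ranks that chose the genes come from the same arrays. The name "bright at 3 weeks only" thus fits the ranks of all 52 genes but the intensities of only some. Intensities of different probes cannot be compared as transcript levels. The dimmest values carry no sure ratio. On the array with the most zeros, replicate 1 of 3 weeks, 1099 probes were listed at 0. Any probe within the lowest 1099 ranks of its array is treated here as lying at a floor. Arrays of 4 weeks had 460 to 471 zeros, so many values above 0 also count as at the floor there. Of the 52 genes 18 had at least 1 array of 4 weeks at the floor, and 6 had all 4 there. These counts were not made over all probes. The 6 are FATB, AT1G51080, AT2G26340, AT2G38070, AT4G38490 and AT1G04420, and no fold is given for them. AT3G02030, AT2G04700, AT4G25290, AT1G28150, AT4G08280, AT1G24240 and AT3G14890 had 3 arrays of 4 weeks at the floor. PRA1.B3, CYN, AT2G41120 and AT2G23070 had 2, and ILA had 1. None of the 52 was at the floor on any array of 3 weeks, which their selection from the top 20% of ranks at that age nearly requires.

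**Figure D2:**
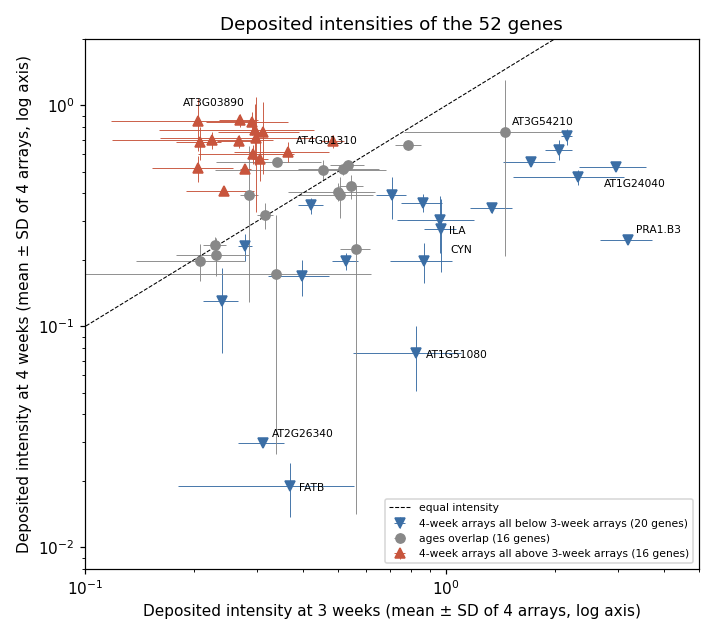
Mean deposited intensity of each of the 52 genes at 4 weeks (y axis) against 3 weeks (x axis), both on log axes, with SD over 4 arrays. Genes below the dashed line had the lower mean at 4 weeks, as 30 genes did; no vertical error bar is drawn for the 3 genes with an array of 4 weeks listed at 0.

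Of the genes for metabolic enzymes, FATB and CYN were lower on every array of 4 weeks. FATB, the acyl carrier protein thioesterase that releases saturated fatty acids in the plastid, had intensities of 0.0152, 0.0193, 0.0261 and 0.0151 at 4 weeks, against 0.214, 0.207, 0.474 and 0.579 at 3 weeks. The mean was 0.0189 ± 0.00519 at 4 weeks and 0.369 ± 0.188 at 3 weeks (SD, n = 4 each), with all arrays of 4 weeks at the floor. Replicates 3 and 4 at 3 weeks were the brightest, and the ages did not come near each other on any array. CYN encodes cyanase, which breaks down cyanate with bicarbonate. Its probe had 0.377, 0.348, 0.207 and 0.174 at 4 weeks and 1.09, 0.991, 0.870 and 0.913 at 3 weeks, a mean 3.5-fold lower at 4 weeks, where replicates 3 and 4 lay at the floor. Replicates 1 and 2 were the higher pair at both ages.

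AT2G04700 encodes the catalytic subunit of ferredoxin-thioredoxin reductase, which passes electrons from ferredoxin to the thioredoxins that switch on chloroplast enzymes in the light. It had 0.536, 0.101, 0.139 and 0.117 at 4 weeks and 0.588, 0.575, 0.602 and 0.484 at 3 weeks. Replicate 1 of 4 weeks lay within the range of 3 weeks and the other three far below it. The others lay at the floor, so no fold is given; the mean of 4 weeks was 0.223 ± 0.209 with all 4 arrays (SD, n = 4) and 0.119 ± 0.0188 without replicate 1 (SD, n = 3), against 0.562 ± 0.0532 at 3 weeks (SD, n = 4). AT1G04420, a member of the aldo/keto reductase family, had 0.130 ± 0.0541 at 4 weeks and 0.239 ± 0.0267 at 3 weeks (SD, n = 4 each), without overlap. AT3G02030 belongs to the esterase and acyltransferase family of the phytyl ester synthases. It was also lower on every array, with 0.171, 0.159, 0.245 and 0.215 at 4 weeks against 0.685, 0.768, 1.02 and 1.01 at 3 weeks. Of its arrays of 4 weeks 3 lay at the floor.

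THIC makes the pyrimidine part of thiamine in the chloroplast, and its arrays overlapped. It had 0.447, 0.390, 0.389 and 0.497 at 4 weeks and 0.547, 0.579, 0.487 and 0.574 at 3 weeks, a mean only 1.27-fold lower. Its mean rank percentile nevertheless differed widely, at 51.0 at 4 weeks and 89.8 at 3 weeks. AT3G45770, the enoyl reductase of mitochondrial fatty acid synthesis, had means of 0.517 ± 0.0314 at 4 weeks and 0.519 ± 0.130 at 3 weeks (SD, n = 4 each), and the ages could not be told apart by intensity.

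A further 3 metabolic genes had higher intensities on every array of 4 weeks and still a lower rank. AT3G58610 encodes ketol-acid reductoisomerase, an enzyme of branched-chain amino acid synthesis, and had 0.621, 0.516, 0.478 and 0.467 at 4 weeks and 0.157, 0.243, 0.163 and 0.256 at 3 weeks. AT4G29890, which resembles choline monooxygenase, had 0.934, 0.911, 0.771 and 0.733 at 4 weeks and 0.199, 0.262, 0.347 and 0.354 at 3 weeks. AT1G15410, of the aspartate and glutamate racemase family, had 1.28, 0.538, 0.501 and 0.522 at 4 weeks and 0.180, 0.186, 0.374 and 0.451 at 3 weeks. Its mean was 2.39 times that of 3 weeks, and 1.75 times without replicate 1 of 4 weeks, which stood far above the others.

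Genes for ribosomes and translation went different ways in intensity. From a list of 38 plastid ribosomal proteins 6 had a probe with 1 gene, and 2 are among the 52 genes. AT3G54210, for protein L17, had 1.19, 1.27, 0.294 and 0.272 at 4 weeks and 2.01, 2.08, 0.990 and 0.735 at 3 weeks. Replicates 1 and 2 were well above 3 and 4 at both ages, and within each of these pairs the arrays of 4 weeks were the lower ones. AT4G01310, for protein L5, had 0.642, 0.690, 0.545 and 0.592 at 4 weeks and 0.460, 0.451, 0.242 and 0.310 at 3 weeks, so every array of 4 weeks was higher. The other 4 of these plastid ribosomal proteins are outside the 52 genes. Of them, the L29 gene AT5G65220 was in the top 20% at both ages, with mean rank percentiles of 90.2 at 4 weeks and 86.2 at 3 weeks. AT1G29070, AT3G13120 and AT1G64510 had mean rank percentiles of 21.0, 26.8 and 6.79 at 4 weeks and 21.1, 19.4 and 20.3 at 3 weeks, and were listed at 0 on 3 of the 4 arrays of 3 weeks. AT1G64510 was also listed at 0 on all 4 arrays of 4 weeks. Its ranks are thus mostly those of tied zeros, which shift with the number of zeros on an array.

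AT1G24240, of the ribosomal protein L19 family, was the most variable of the 52 at 3 weeks, with a coefficient of variation of 83.7%. It had 0.136, 0.369, 0.0158 and 0.171 at 4 weeks and 0.128, 0.674, 0.0811 and 0.467 at 3 weeks. Replicates 2 and 4 were the higher arrays and replicate 3 the lowest at both ages, and the ages overlapped. AT5G53920, which resembles the methyltransferase of ribosomal protein L11, had 0.685 ± 0.116 at 4 weeks and 0.208 ± 0.0294 at 3 weeks (SD, n = 4 each), higher on every array of 4 weeks.

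ILA (ILITHYIA) encodes a large protein related to yeast GCN1, a regulator of translation under stress. It had 0.373, 0.376, 0.202 and 0.256 at 4 weeks and 0.730, 0.804, 1.20 and 1.12 at 3 weeks, a mean 3.19-fold lower at 4 weeks with no overlap, though replicate 3 of 4 weeks lay at the floor. Replicates 1 and 2 were the higher pair at 4 weeks and the lower pair at 3 weeks. AT5G19210, for a DEAD-box RNA helicase, had 0.474 ± 0.0372 at 4 weeks and 2.32 ± 0.793 at 3 weeks (SD, n = 4 each), a 4.90-fold lower mean. AT3G15140, for an exonuclease related to ERI-1, was 1.80-fold lower, with 0.358, 0.414, 0.496 and 0.297 at 4 weeks and 0.680, 0.655, 0.684 and 0.805 at 3 weeks. AT2G28540, by contrast, which is related to the NOT4 protein of the mRNA deadenylation complex, had 0.858 ± 0.0579 at 4 weeks and 0.268 ± 0.0338 at 3 weeks (SD, n = 4 each).

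**Figure D3:**
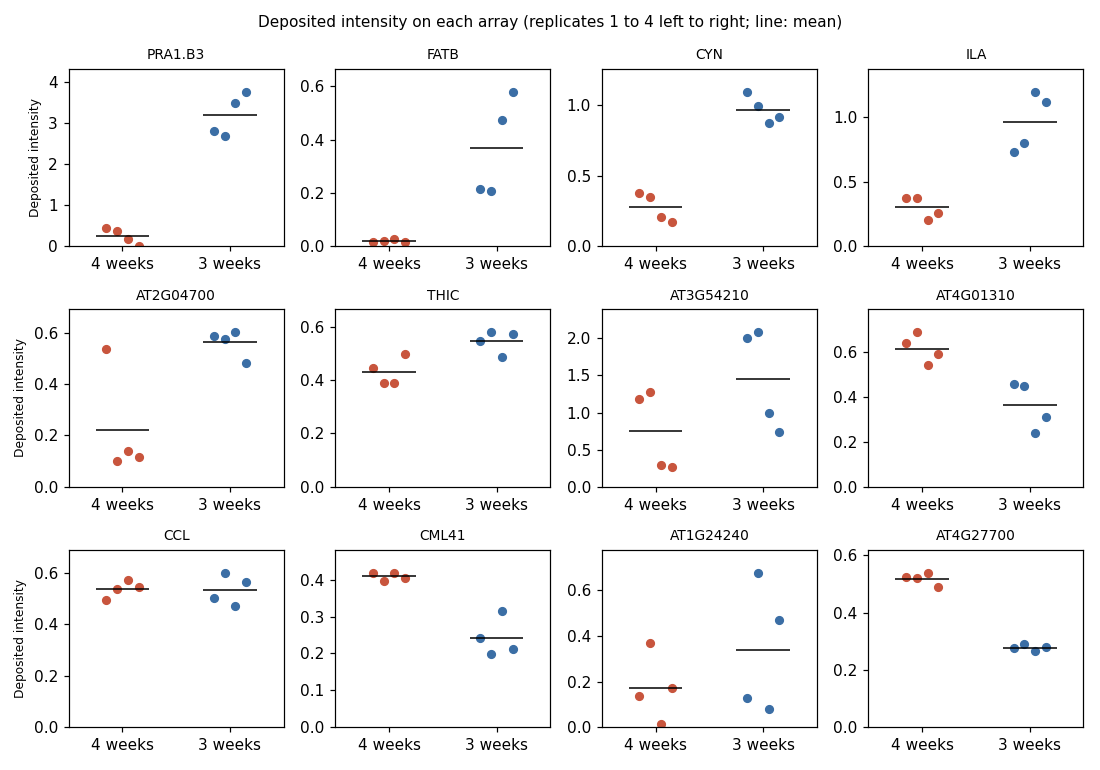
Deposited intensity (y axis, linear, from 0, scaled to each gene) of 12 of the 52 genes on each array, 4 weeks left and 3 weeks right in each panel; points are replicates 1 to 4 from left to right and lines are means. PRA1.B3, FATB, CYN and ILA were lower on every array of 4 weeks, CCL overlapped, and AT4G01310, CML41 and AT4G27700 were higher on every array of 4 weeks.

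Among the genes for membrane traffic and transport, PRA1.B3 had the highest mean rank of the 52 at 3 weeks, at percentile 96.8. It encodes a prenylated RAB acceptor, a small membrane protein of the secretory pathway. It had 0.443, 0.366, 0.173 and a value listed at 0 on the arrays of 4 weeks, against 2.82, 2.69, 3.49 and 3.77 on those of 3 weeks. Every array of 3 weeks was above every array of 4 weeks by a wide margin, while the 4-week arrays were spread widely among themselves. AT3G25410 is a member of the sodium and bile acid symporter family. It had 0.324, 0.344, 0.384 and 0.400 at 4 weeks and 0.943, 0.803, 0.973 and 0.736 at 3 weeks, a mean 2.38-fold lower at 4 weeks.

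Among genes with a signalling or regulatory role, CML41, a calmodulin-like calcium sensor, had 0.418, 0.396, 0.417 and 0.405 at 4 weeks and 0.242, 0.199, 0.314 and 0.213 at 3 weeks, so it was higher on every array. AT2G23070, the plastid form of the catalytic subunit of protein kinase CK2, had 0.775, 0.246, 0.341 and 0.204 at 4 weeks and 0.304, 0.289, 0.266 and 0.279 at 3 weeks. Its arrays of 3 weeks agreed closely and those of 4 weeks lay on both sides of them. AT1G01250, a transcription factor of the AP2/ERF family, had 1.04, 0.468, 0.821 and 0.773 at 4 weeks and 0.205, 0.160, 0.448 and 0.367 at 3 weeks, higher on every array of 4 weeks by a margin that replicate 2 nearly closed.

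CCL, a transcript under control of the circadian clock, had almost the same intensity at both ages. It measured 0.494, 0.538, 0.571 and 0.544 at 4 weeks and 0.5, 0.599, 0.471 and 0.565 at 3 weeks. Its mean rank percentile was 60.2 at 4 weeks and 89.6 at 3 weeks, beside the higher median of all probes at 4 weeks. AT1G24040, of the GNAT family of acetyltransferases, had 0.499, 0.547, 0.514 and 0.540 at 4 weeks and 2.70, 2.29, 3.77 and 3.06 at 3 weeks, a mean 5.63-fold lower. AGL26 had 0.696 ± 0.0641 at 4 weeks and 0.225 ± 0.106 at 3 weeks (SD, n = 4 each), higher on every array of 4 weeks.

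AT4G27700, which encodes a rhodanese domain protein, was the most even of the 52 genes at 3 weeks, with a coefficient of variation of 3.29%. It had 0.523, 0.519, 0.538 and 0.489 at 4 weeks and 0.276, 0.289, 0.267 and 0.280 at 3 weeks, so the difference between the ages was far larger than the spread of either. AT4G25290, which carries a DNA photolyase domain, had 0.227, 0.253, 0.187 and 0.255 at 4 weeks and 0.290, 0.274, 0.282 and 0.261 at 3 weeks. The arrays did not overlap but came within a narrow gap, and 3 of the 4 arrays of 4 weeks lay at the floor. AT3G14890, the DNA 3′-phosphoesterase of base excision repair, overlapped, with 0.198 ± 0.0369 at 4 weeks and 0.208 ± 0.0693 at 3 weeks (SD, n = 4 each).

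No role is given here for several of the genes with the largest differences. AT1G51080 had the largest difference in mean rank of the 52, with percentile 17.4 at 4 weeks and 91.9 at 3 weeks. Its probe had 0.0887, 0.0998, 0.0437 and 0.0698 at 4 weeks, all at the floor, against 0.569, 0.614, 1.02 and 1.10 at 3 weeks. AT2G26340 was listed at 0 on replicates 1 and 2 of 4 weeks and had 0.0667 and 0.0521 on replicates 3 and 4, against 0.366, 0.266, 0.330 and 0.281 at 3 weeks. Every array of 3 weeks was brighter for both genes.

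AT1G64430 had 0.353, 0.321, 0.342 and 0.353 at 4 weeks and 1.44, 1.54, 1.17 and 1.22 at 3 weeks, a mean 3.92-fold lower. AT1G33250 had 0.566, 0.519, 0.559 and 0.579 at 4 weeks and 1.44, 1.54, 1.83 and 2.05 at 3 weeks, a mean 3.09-fold lower. Neither overlapped, and both were more even at 4 weeks. AT3G15900 was even at both ages, with 0.740, 0.771, 0.633 and 0.752 at 4 weeks against 2.14, 2.12, 2.10 and 2.26 at 3 weeks, a mean 2.98-fold lower. AT5G19540 had 0.601, 0.704, 0.554 and 0.657 at 4 weeks and 2.18, 2.12, 1.79 and 2.12 at 3 weeks, a mean 3.26-fold lower. For AT5G19540, replicate 3 was the lowest array at both ages. AT2G38070 had 0.198 ± 0.0175 at 4 weeks and 0.526 ± 0.0443 at 3 weeks, and AT4G38490 had 0.169 ± 0.0314 at 4 weeks and 0.397 ± 0.0760 at 3 weeks (SD, n = 4 each), and every 4-week array of both genes was at the floor. AT3G51510 was 1.20-fold lower without overlap. These complete the 20 genes that were lower on every array of 4 weeks.

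The remaining genes whose arrays overlapped are AT1G69910, AT2G21530, AT5G03900, AT1G03660, AT2G41120, AT1G01500, AT1G28150 and AT4G08280. AT1G69910 had 0.662 ± 0.0320 at 4 weeks and 0.785 ± 0.0659 at 3 weeks, and AT5G03900 had 0.407 ± 0.0378 at 4 weeks and 0.501 ± 0.136 at 3 weeks (SD, n = 4 each). AT1G03660 had 0.540, 0.494, 0.445 and 0.564 at 4 weeks and 0.698, 0.185, 0.569 and 0.368 at 3 weeks. Its arrays of 3 weeks lay on both sides of those of 4 weeks. AT1G01500 had 0.319 ± 0.0420 at 4 weeks and 0.315 ± 0.0166 at 3 weeks, and AT4G08280 had 0.210 ± 0.0412 at 4 weeks and 0.231 ± 0.0529 at 3 weeks (SD, n = 4 each). AT1G28150 had nearly the same intensity on all 8 arrays, with 0.240, 0.258, 0.215 and 0.217 at 4 weeks and 0.226, 0.254, 0.220 and 0.216 at 3 weeks, yet mean rank percentiles of 31.0 at 4 weeks and 81.9 at 3 weeks. AT2G41120 had 1.13, 1.08, a value listed at 0 and 0.0207 at 4 weeks and 0.460, 0.406, 0.224 and 0.273 at 3 weeks. Replicates 1 and 2 of 4 weeks were thus above, and replicates 3 and 4 below, all arrays of 3 weeks. The remaining genes that were higher on every array of 4 weeks are AT3G26580, AT4G09620, AT5G63830, AT1G50000, AT1G13990 and AT3G03890. AT3G26580 was 1.42 times as bright at 4 weeks, AT4G09620 was 1.87 times, AT1G50000 was 2.07 times and AT1G13990 was 2.58 times. AT5G63830, which carries a HIT-type zinc finger, had 0.971, 1.02, 0.536 and 0.518 at 4 weeks and 0.386, 0.372, 0.236 and 0.253 at 3 weeks, with replicates 1 and 2 the higher pair at both ages. AT3G03890 had 0.936, 1.05, 0.885 and 0.529 at 4 weeks and 0.172, 0.165, 0.337 and 0.149 at 3 weeks. Replicate 4 was its lowest array at both ages. Over all 16 genes of this kind the mean at 4 weeks was 1.42 to 4.13 times that at 3 weeks.

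Since the arrays do not share a distribution, the size of the difference depends on how they are scaled. Quantile normalization, which gives every array the same distribution, was followed by raising values to the floor, 0.123 after normalization, and a log2 transform. The median log2 difference of the 52 genes, 4 weeks minus 3 weeks, was then -2.16 (range -4.27 to -0.14), beside a median of 0 over all probes, and the median SE of a gene was 0.122. Without scaling, values were raised to a floor of 0.263, which exceeds the 3-week median of all probes and so shrinks many differences. The median of the 52 was then -0.061 beside 0.408 over all probes. Of the 52 differences 29 were below 0, as were 10.2% of all probes and 7.37% of those with 1 gene. Of the 52 genes 34 lay above the floor on all 8 arrays. For AT1G24040, one of these, the log2 difference was -3.35 (SE 0.17) with quantile normalization and -2.47 without scaling. For CML41 it was -1.49 (SE 0.10) with quantile normalization but 0.57 without scaling, where most of its 3-week values were raised to the floor. FATB lay at the floor on every array of 4 weeks, so its log2 difference of -2.58 (SE 0.21) is set by the floor.

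**Figure D4:**
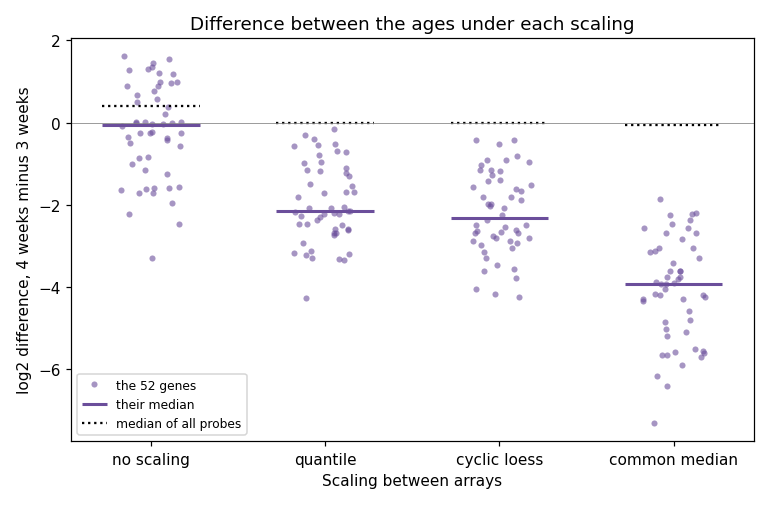
The log2 difference of each of the 52 genes, 4 weeks minus 3 weeks (y axis), under 4 ways of scaling the arrays (x axis); purple bars are medians of the 52 genes and dotted lines medians of all probes. All 52 points lie below 0 under quantile, cyclic loess and common-median scaling, and 29 do without scaling.

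Replicates 1 and 2 resembled each other in these genes, and so did replicates 3 and 4. At 3 weeks replicates 1 and 2 lay both above or both below replicates 3 and 4 for 34 of the 52 genes (65.4%). The share was 71.3% of the 687 probes in the top 20% at that age and 39.1% of all probes. At 4 weeks the pairs stood apart in this way for 25 genes (48.1%), beside 59.1% of the same 687 probes and 49.8% of all probes. For 10 genes the pair stood apart the same way at both ages, among them CYN, AGL26, AT3G54210 and AT5G63830. That is 19.2% of the 52, beside 24.3% of the 687 probes and 12.1% of all probes. Within replicates 1 and 2 alone the mean intensity was lower at 4 weeks for 28 of the 52 genes, beside 15.3% of all probes, and within 3 and 4 alone for 31, beside 17.2% of all probes. The direction turned between these pairs for 9 of the 52 genes, which is possible only where the ages overlap. This was not counted over all probes. AT2G21530, which carries a forkhead-associated domain, averaged 0.323 at 4 weeks and 0.610 at 3 weeks over replicates 1 and 2, but 0.460 at 4 weeks and 0.404 at 3 weeks over replicates 3 and 4. What replicates 1 and 2 had in common is not given in the labels, and its part in the values was not tested.

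**Figure D5:**
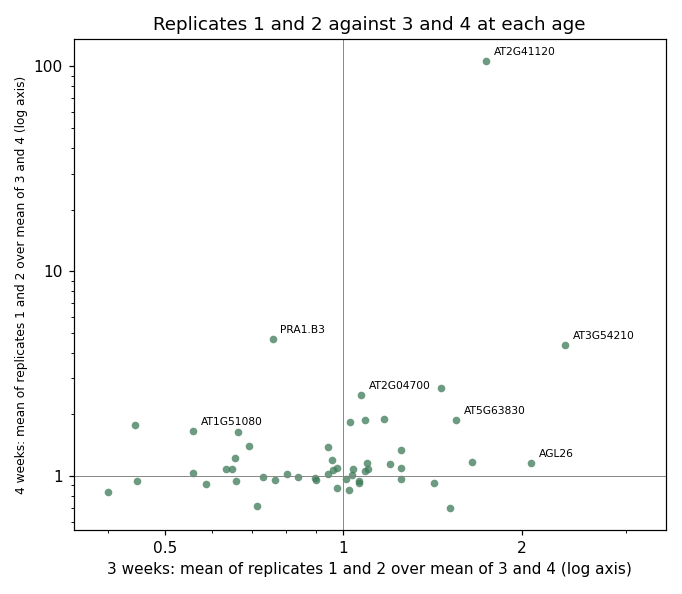
Mean deposited intensity of replicates 1 and 2 divided by that of replicates 3 and 4, at 4 weeks (y axis) against 3 weeks (x axis), both on log axes, for 51 of the 52 genes. AT3G54210 has ratios of 4.34 at 4 weeks and 2.37 at 3 weeks; AT2G26340, listed at 0 on replicates 1 and 2 of 4 weeks, is not drawn.

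The rank order among the 52 genes at one age said little about their order at the other. Spearman's correlation of mean ranks across the 52 genes was -0.100, beside 0.460 across the 692 probes with 1 gene. The same 8 arrays lie behind every gene, and the selection narrows the range of ranks at both ages, so these are descriptions. The order was more stable among arrays of one age, with 0.662 to 0.943 at 4 weeks and 0.689 to 0.911 at 3 weeks. The median coefficient of variation was 13.3% at 4 weeks and 17.7% at 3 weeks. It was 9.01% at 4 weeks and 12.9% at 3 weeks for the 57 genes in the top 20% at both ages. Over the 692 probes with 1 gene it was 13.8% at 4 weeks and 64.1% at 3 weeks, where many of them lay near 0.

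By locus code 16, 8, 14, 7 and 7 of the 52 genes lie on chromosomes 1 to 5, which is 30.8%, 15.4%, 26.9%, 13.5% and 13.5%. The 692 probes with 1 gene have 25.1%, 17.9%, 18.8%, 17.3% and 20.7%. No 2 of the 51 genes found in the RefSeq gene table (assembly TAIR10.1) were direct neighbours. The closest pair, AT3G26580 and CCL, had 17 protein-coding genes between them.

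At the border of the selection the values ran on without a gap. The last gene inside at 3 weeks was AT3G03890, in place 681, with an intensity of 0.851 ± 0.226 at 4 weeks and 0.206 ± 0.0880 at 3 weeks. CML30, the first single-gene probe outside, was in place 688, with 0.823 ± 0.0601 at 4 weeks and 0.199 ± 0.0672 at 3 weeks. At 4 weeks AT2G28540 was just outside the top 20%, in place 703, and AT3G09050, which was inside at both ages, was in place 682 (SD, n = 4 throughout).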

How the data were processed

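Per the file headers and values, the authors deposited a single value table with 8 array columns of linear intensity, all used. The steps behind it are not named in the labels, and background correction, scaling factor and centring stay unknown. Array medians differ by age, so the columns share no common median. With no background signal to set against, precision rests on having 4 arrays per age. The fit described below treats these arrays as independent, although the labels do not say whether they came from separate plants. Its SEs may therefore not reflect the spread between plants. The platform annotation gave 692 probes 1 gene, 870 several and 1877 none named here; symbols were updated by Entrez number through RefSeq (690 matched). Differences and SEs were fitted over all probes with age alone (limma 3.58.1, lmFit with eBayes, R 4.3.3) after quantile normalization, with a floor at rank 1099, the largest number of zeros on an array. The fit was run on simulated arrays that shared a common profile, held no zeros and had known differences among bright probes only. That run could not check the estimates against the unequal distributions, the zeros or the floor of the real arrays.

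The genes and lists were chosen with earlier results of these data known. The rule for named genes took the 12 highest ranks at 3 weeks, the 12 largest and 6 smallest differences in rank, the 6 lowest and 6 highest coefficients of variation at 3 weeks, genes with a symbol, and list genes, 36 in all; others were named after their values were seen, and the grouping by role was made then too. Same-numbered arrays deviated together from their age means (correlations 0.171, 0.213, 0.171 and 0.236 over all probes), so a fit with the replicate number as a block was also made. Replicate 1 of one age with 2 of the other, and 3 with 4, gave lower correlations of 0.0515 to 0.106. Between replicates 1 or 2 and replicates 3 or 4 they were -0.184 to -0.0876. How much of the shared deviation belongs to these pairs was not tested. Alternatives were other scalings, floors, rank thresholds and leaving out arrays. Sequence features and promoter motifs were planned but not analysed here.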

Additional observations from a re-analysis of the deposited data

Results flagged for a closer look

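Among the 104 groups of 4 arrays that the 52 genes give, 5 had an array far from the others in deposited intensity, where chance gives about 5.2. For AT2G04700 at 4 weeks replicate 1 had 0.536 against 0.101 to 0.139 on the other arrays, a gap of 0.914 of the range. For AT1G15410 at 4 weeks replicate 1 had 1.28 against 0.501 to 0.538 (0.952 of the range). For AT3G03890 at 3 weeks replicate 3 had 0.337 against 0.149 to 0.172 (0.881), and without it the mean at 4 weeks was 5.25 times that at 3 weeks. For AT4G38490 at 3 weeks replicate 2 had 0.510 against 0.348 to 0.375 (0.834), and without it the mean of 3 weeks was 0.360 ± 0.0137 (SD, n = 3), with all arrays of 4 weeks lower. For AT5G19540 at 3 weeks replicate 3 had 1.79 against 2.12 to 2.18 (0.836), and without it the mean was 3.40-fold lower at 4 weeks.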

How the results depend on the processing

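The median log2 difference of the 52 genes, -2.16 after quantile normalization, was -3.92 with arrays scaled to a common median, -2.31 under cyclic loess and -0.061 without scaling. These 3 alternatives had their own floors, 0.133, 0.111 and 0.263 in that order. With quantile normalization, raising the floor to the median probe gave -1.64, and keeping only the 34 genes above the floor on all 8 arrays gave -1.61. Leaving out 1 array at a time gave -2.253 to -2.004. With the replicate block it stayed at -2.16, with a median SE of 0.112. Halving the floor also left -2.16. Restricting the fit to replicates 1 and 2 gave -2.18 and to 3 and 4 gave -2.14, alternatives chosen after seeing the data. The 30 genes with a lower mean at 4 weeks in deposited intensity became 52 under quantile normalization, a common median and cyclic loess, and 29 to 31 without 1 array. The genes were selected for a lower rank at 4 weeks, so the 52 are no separate result. Of the 36 genes named by rule, 14 had a difference above 0 without scaling and 0 under a common median or cyclic loess. Over all probes the shares above 0 were 89.8%, 48.0% and 62.2% in that order. A top 15% in place of 20% kept 33 of the 52 genes among 38, a top 25% kept 49 among 67, and leaving out 1 array gave 51 to 54 genes that shared at least 50. Causes of these shifts were not tested. Values at 0 and the unknown background limit what dim probes show.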
